A study of Mus musculus with 59 samples.

Results

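The unfolded protein response genes described here are Ddit3, Trib3, Xbp1, Atf4, Herpud1, Creld2, Manf, Sdf2l1, Pdia4 and Pdia6, 10 of the 18193 genes represented on the arrays. A gene was found through the probe sets that carry its symbol alone in the platform annotation, and the brightest of these over all 59 arrays stood for it. All 10 genes were found and tested, with no filter on low values. Liver RNA came from male C57BL/6 mice, which were 6 weeks old at the start and then had 2 weeks to acclimate, and it was measured on 1-colour Affymetrix arrays as deposited log2 expression levels.

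In the 5-week experiment, mice on LRD-5001, a standard rodent chow, or on AIN-76A, a diet of purified ingredients, had 10 or 100 ppb sodium arsenite in drinking water, 10 ppb in food, or no added arsenite as the control. In the injection experiment, all mice ate AIN-76A, and the frozen livers were collected at 8 hours. These mice had received an intraperitoneal dose of dexamethasone with arsenite, of arsenite, of dexamethasone, or of saline, with both agents at 1 mg/kg. Dexamethasone is a synthetic glucocorticoid. Each of the 12 groups held 5 arrays, except for 4 at 100 ppb in water on AIN-76A. The labels call these samples biological replicates, without saying more on cages or litters, so p-values measure only the spread between these samples.

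The unfolded protein response is set off when proteins fold poorly in the endoplasmic reticulum (ER), the compartment in which liver cells make the plasma proteins they secrete. Sensors in the ER membrane act through splicing of Xbp1 RNA, through cleavage of the factor ATF6, and through a kinase that slows translation while favouring that of Atf4 RNA. XBP1 and ATF6 switch on chaperones and degradation genes, many of them through a promoter motif called the ER stress response element, and ATF4 switches on Ddit3, which encodes CHOP, and Trib3. The arrays measured RNA levels, and neither Xbp1 splicing nor translation was measured.

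Hspa5 encodes BiP, the main ER chaperone, and is not one of the 10 genes, but its levels stand beside theirs below. The ER stress response element (ERSE), searched on both strands as CCAAT and CCACG with 9 bases between them, was found in the RefSeq promoters (GRCm38.p6, 250 bases before to 50 after each gene's start) of Creld2, Pdia6 and Hspa5. It occurs in 39 of 32851 promoters of the same length (0.119%). Herpud1 has the related ERSE-II element, ATTGG and CCACG with 1 base between them, which occurs in 12 promoters (0.0365%). The 150 bases before the start of these 4 genes are shown 5′ to 3′ on the plus strand, with the match in capitals, because Creld2, Pdia6 and Hspa5 hold the motif and Herpud1 holds the related one. Their places are chr15:88819496-88819645 for Creld2, chr12:17266439-17266588 for Pdia6, chr2:34771940-34772089 for Hspa5 and chr8:94386279-94386428 for Herpud1.
Creld2: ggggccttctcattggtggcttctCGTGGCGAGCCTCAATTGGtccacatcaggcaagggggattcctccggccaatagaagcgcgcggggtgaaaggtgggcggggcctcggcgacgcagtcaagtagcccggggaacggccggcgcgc
Pdia6: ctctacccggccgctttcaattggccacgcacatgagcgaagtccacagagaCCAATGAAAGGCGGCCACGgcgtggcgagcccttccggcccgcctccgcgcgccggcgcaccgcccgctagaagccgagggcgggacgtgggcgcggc
Hspa5: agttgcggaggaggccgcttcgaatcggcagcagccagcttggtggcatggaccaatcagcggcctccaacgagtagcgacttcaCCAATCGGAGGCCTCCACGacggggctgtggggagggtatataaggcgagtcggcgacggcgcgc
Herpud1: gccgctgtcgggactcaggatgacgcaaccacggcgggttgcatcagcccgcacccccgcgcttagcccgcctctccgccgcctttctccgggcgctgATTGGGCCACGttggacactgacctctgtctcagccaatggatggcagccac

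The match lies at -98 to -80 from the start in Pdia6, at -65 to -47 in Hspa5, at -52 to -42 in Herpud1 and, on the opposite strand, at -126 to -108 in Creld2. The table held promoters of 9 of the 10 genes, Manf excepted, which was therefore not searched. Sdf2l1, whose deviations ran with those of Pdia6 (r = 0.72), had no ERSE match in this window. The ATF4-type element TGATGNAA was in the promoters of Herpud1 and Trib3, both on the opposite strand, and in 3.97% of all promoters. The element TGACGTGG, known as UPRE, was in 0 of the 9 promoters and in 0.676% of all. These matches describe letters in a window and were not tested as binding sites.

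In every group, the array with the lowest score on the leading component of array deviations (27.6% of the variance within groups) was set apart. This rule picks 1 array per group whatever its distance from the others, and such arrays are said below to have lain apart. The component was computed over the probe sets brighter than the median probe set. Its sign was chosen so that scores rose with the upper quartile of the arrays. These 12 arrays had a mean upper quartile of 3.89, and the other arrays 4.16, a direction that follows largely from that choice of sign. The deviations of Xbp1 ran with that component (r = 0.69 over 59 arrays), those of Creld2 hardly did (r = 0.04), and the other 8 genes lay between -0.38 (Pdia4) and 0.34 (Ddit3). Of the hepatocyte markers, 6 of 8 were measured and none was dim, where dim means a mean within 1 log2 unit of the highest array median. Of 9 measured pancreas markers 8 were dim, Cela1 being the exception, and so were 6 of 8 measured B and plasma cell markers. The livers are bulk tissue, in which fewer cells of a type and less RNA per cell cannot be told apart.

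Across the 12 groups, the 10 genes moved within modest limits. Over 25 contrasts limma gave 250 tests of the 10 genes, of which 3 passed an adjusted p of 0.05 over 45037 probe sets and 25 had an unadjusted p under 0.05. Over all probe sets and the same contrasts, 0.471% of tests passed and 6.01% had an unadjusted p under 0.05. Creld2 was higher at 100 than at 10 ppb arsenite in water on AIN-76A, Trib3 was higher and Pdia6 lower on LRD-5001 than on the purified diet. No gene was called in any contrast of an arsenite exposure with its control, or in any contrast between injections.

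**Figure D1:**
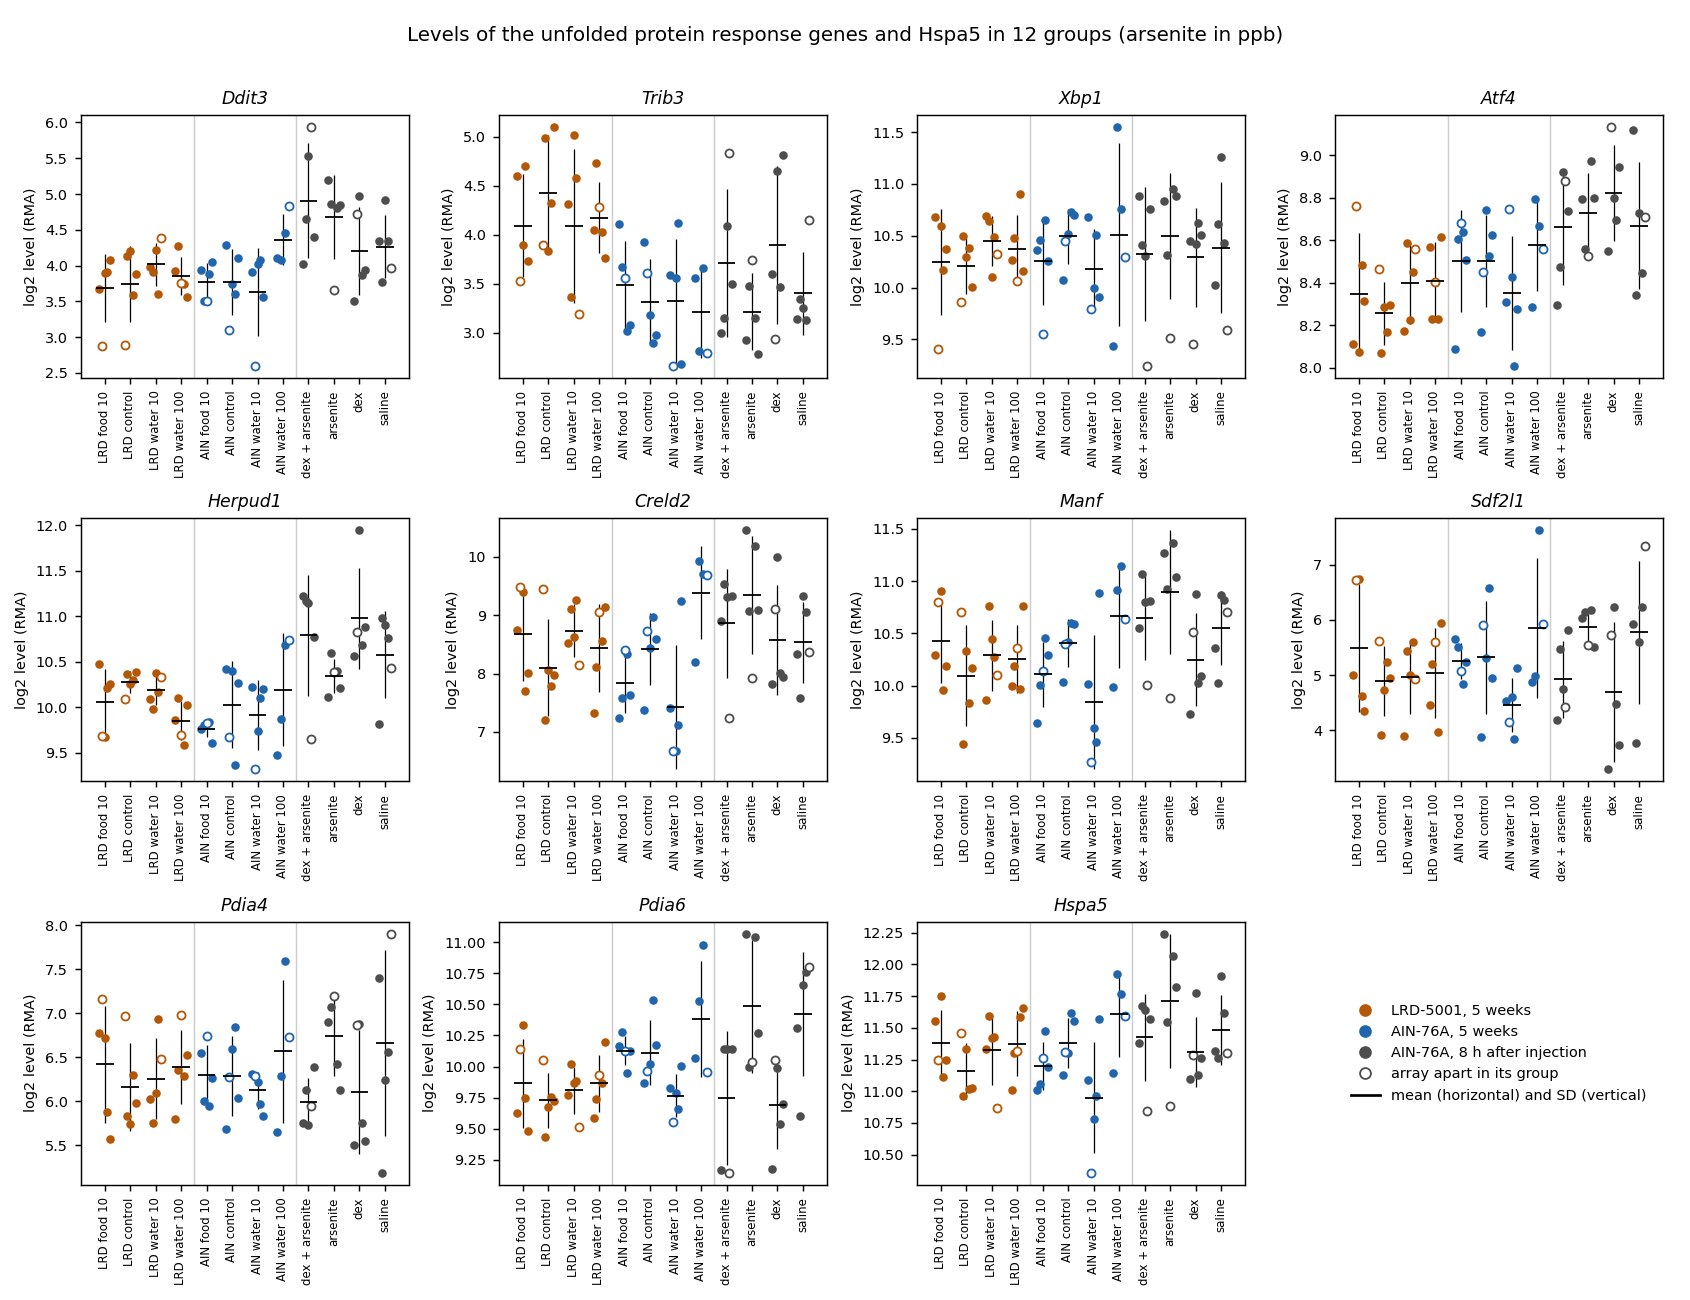
Log2 level of each of the 10 genes and of Hspa5 (vertical axes) on every array, grouped along the horizontal axis by diet, arsenite in ppb or injection, with points for arrays (open where the array lay apart), a horizontal bar for the group mean and a vertical line for 1 SD on either side. The arrays of 1 group spread widely for Creld2 and Sdf2l1 and narrowly for Atf4, and the Trib3 points of the LRD-5001 groups sit above most of those of the 5-week AIN-76A groups.

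The genes differed in how much arrays of 1 group varied. The within-group SD was 0.23 for Atf4, 0.36 for Pdia6, 0.40 for Herpud1 and 0.43 for Manf, against 0.81 for Creld2 and 0.89 for Sdf2l1. It was 0.50 for Ddit3, 0.50 for Xbp1, 0.57 for Pdia4 and 0.58 for Trib3. When the 12 groups were put in order of their mean, no 2 groups next to each other separated without overlap in any of the 10 genes. The arrays of the highest and the lowest group were separate for Trib3, Herpud1, Sdf2l1 and Atf4 and overlapped for the other 6 genes. These extreme groups were picked by their means, and the same picking separated them in 26.8% of all genes. The mean was highest at 100 ppb in water on AIN-76A for Creld2 (9.39) and Xbp1 (10.51), after arsenite injection for Manf (10.89), Pdia6 (10.48), Pdia4 (6.74) and Sdf2l1 (5.88), and after dexamethasone for Herpud1 (10.98) and Atf4 (8.82). It was lowest at 10 ppb in water on AIN-76A for Creld2 (7.42), Manf (9.84), Sdf2l1 (4.45), Ddit3 (3.63) and Xbp1 (10.18).

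Among the transcriptional regulators, Trib3 followed diet. Trib3 encodes a pseudokinase induced by ATF4 and CHOP that binds the kinase AKT. Over the 20 arrays on LRD-5001, its level ran from 3.19 through a median of 4.17 to 5.10, and over the 19 arrays of the 5-week AIN-76A groups it ran from 2.66 through 3.56 to 4.12. The 2 sets of arrays overlap, with the higher levels on LRD-5001. Averaged over the 4 exposures, the difference was 0.86 (SE 0.17, 95% interval 0.52 to 1.20, limma adjusted p = 0.000828). The Trib3 means of the 4 AIN-76A groups, from 3.21 to 3.49, are dim by the definition above, where differences between arrays can be understated. The second probe set of Trib3, whose deviations followed the first with r = 0.73, gave 0.87 with limma's adjusted p = 0.000661. That probe set was dim itself (mean 3.52), so it is a limited check. In this contrast 4.26% of all probe sets were called, 2.67% higher and 1.59% lower on LRD-5001. At an unadjusted p under 0.05 there were 2 of the 10 genes and 14.3% of all probe sets.

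The Trib3 difference had the same direction at each exposure. In control mice, the 5 levels on LRD-5001 were 3.90, 4.99, 3.83, 4.32 and 5.10, and on AIN-76A they were 3.92, 3.61, 3.18, 2.90 and 2.97. At 100 ppb in water, the levels were 4.05, 4.73, 4.28, 4.03 and 3.77 on LRD-5001, and 3.56, 2.81, 3.66 and 2.79 on AIN-76A. The groups at 100 ppb are separate, as they are for 4.3% of the probe sets, while those of the controls overlap by the LRD-5001 arrays that lie below 3.92. At 10 ppb in water, the levels were 4.32, 3.37, 5.02, 4.58 and 3.19 on LRD-5001, and 3.59, 2.66, 3.56, 4.12 and 2.68 on AIN-76A. At 10 ppb in food, they were 4.60, 3.53, 3.89, 4.70 and 3.73 on LRD-5001, and 4.11, 3.67, 3.56, 3.01 and 3.08 on AIN-76A. The diet groups overlap at both of these exposures.

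Taken level by level, Trib3 did not pass the threshold. Its differences were 1.11 in controls (95% interval 0.44 to 1.78, limma adjusted p = 0.162), 0.77 at 10 ppb in water (0.10 to 1.44, adjusted p = 0.569), 0.97 at 100 ppb in water (0.25 to 1.68, adjusted p = 0.167) and 0.61 at 10 ppb in food (-0.07 to 1.28, adjusted p = 1). Arsenite itself left intervals that include 0: on LRD-5001, Trib3 differed from its control by -0.34 at 10 ppb in water, -0.26 at 100 ppb in water and -0.34 at 10 ppb in food.

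Atf4, the factor upstream of Trib3, was not called with it. Atf4 averaged 8.26 ± 0.15 in LRD-5001 controls and 8.50 ± 0.22 in AIN-76A controls (SD, n = 5 each). Averaged over exposures its difference was -0.13 (95% interval -0.27 to 0.01). This interval is for the brightest probe set of Atf4. The part of Atf4 in the Trib3 difference was not tested, and translation of Atf4 RNA was not measured. Another Atf4 probe set, with a mean of 5.61, gave 0.12 (SE 0.15, limma adjusted p = 0.801). Its deviations followed those of the brightest with r = 0.19 only. The remaining Atf4 probe set was dim (mean 2.85) and gave 0.05. The sign thus differed between probe sets, and the interval holds for the brightest alone. Ddit3 differed by -0.06 and Xbp1 by -0.04. Other targets of ATF4 and CHOP in a list of 19 moved in both directions on LRD-5001: 2 were called higher and 5 lower by limma. Cth, which makes cysteine from cystathionine, was higher by 1.06 (limma adjusted p = 1.51e-09), and Slc3a2, the heavy chain of amino acid transporters, by 0.28. Atf5, a stress-induced factor, was lower with -0.88 (limma adjusted p = 6.01e-07), as were Ddit4, an inhibitor of mTORC1 (-0.77), the hormone gene Fgf21 (-0.66), the stress gene Nupr1 (-0.47, on a dim probe set) and the factor Cebpg (-0.38). Of 7 ER stress sensor genes, 0 were called by limma.

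Beside the diet contrast, clock genes and markers of hepatocytes and other cells differed too. Dbp, a clock output factor, was higher on LRD-5001 by 2.85 and Tef by 0.91, while Arntl, which encodes BMAL1, was lower with -1.15 and Nfil3 with -1.41. Of 12 acute phase genes, 8 were called lower, with Lcn2 at -3.34 and Saa2 at -2.64. The immunoglobulin gene Ighm differed by -2.40, the neutrophil genes S100a8 and S100a9 by -1.25 and -1.30, and the Kupffer cell genes Clec4f, Cd5l and Csf1r by -0.40, -0.37 and -0.33. No other marker was called of the 8 measured for B and plasma cells, 7 for neutrophils and 8 for Kupffer cells. Of 6 measured hepatocyte markers, Hnf4a was lower with -0.25 (limma adjusted p = 0.0194). So was Fgb, also an acute phase gene, with -0.24 (limma adjusted p = 0.00252). The part of these in the Trib3 difference was not tested.

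Pdia6 was the other member called between the diets. It encodes a protein disulfide isomerase, which forms and rearranges disulfide bonds in the ER. Over the 20 arrays on LRD-5001 its level ran from 9.43 through a median of 9.77 to 10.33, and over the 19 arrays on AIN-76A from 9.55 through 10.02 to 10.97, which overlap widely. Its level averaged 9.73 ± 0.22 in LRD-5001 controls and 10.11 ± 0.26 in AIN-76A controls, and at 100 ppb in water 9.87 ± 0.23 on LRD-5001 (SD, n = 5) and 10.38 ± 0.47 on AIN-76A (SD, n = 4). At 10 ppb in water it averaged 9.81 ± 0.19 on LRD-5001 and 9.77 ± 0.17 on AIN-76A, and at 10 ppb in food 9.87 ± 0.36 on LRD-5001 and 10.13 ± 0.12 on AIN-76A (SD, n = 5 each). The means of the diets lay apart in controls and at 100 ppb and nearly level at 10 ppb in water.

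Averaged over exposures, Pdia6 differed by -0.28 (SE 0.08, 95% interval -0.45 to -0.11, limma adjusted p = 0.0444). This call was lost in 3 of 10 other settings and in 26 of the 39 fits that left out 1 array, with a highest adjusted p of 0.193. The Trib3 call was kept in all 49 of the same alternatives, with limma's adjusted p between 0.000253 and 0.00202. Among these, the fit of only the groups compared is the main fit itself for this contrast and could not change either call. Over the 10 genes, 4 differences were positive and 6 negative, with a median of -0.026. No other folding gene among the 10 was called, with Creld2 at 0.22, Manf at 0.01, Pdia4 at -0.01 and Sdf2l1 at -0.13, and Hspa5 was at 0.03. Sdf2 (-0.18) was the only one of 20 ER chaperone and folding genes called, and Derl2 (-0.28) the only one of 17 ER degradation and transport genes, both lower on LRD-5001.

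Within single exposures, limma called 0 of the 10 genes between the diets. The background was 0.568% of probe sets in controls, 0.344% at 10 ppb in water, 2.05% at 100 ppb in water and 0.295% at 10 ppb in food. At an unadjusted p under 0.05 there were 2 genes in controls (7.21% of all probe sets), 2 at 10 ppb in water (7.46%), 2 at 100 ppb in water (13.4%) and 0 at 10 ppb in food (4.93%). At 10 ppb in water all 10 differences were positive, with a median of 0.33, and Creld2 was the largest at 1.31 (95% interval 0.40 to 2.22, limma adjusted p = 0.368). At 100 ppb in water 9 were negative, with a median of -0.38. Pdia6 there was -0.51 (limma adjusted p = 0.124), and it was called without the arrays that lay apart, at -0.67 (adjusted p = 0.0306).

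**Figure D2:**
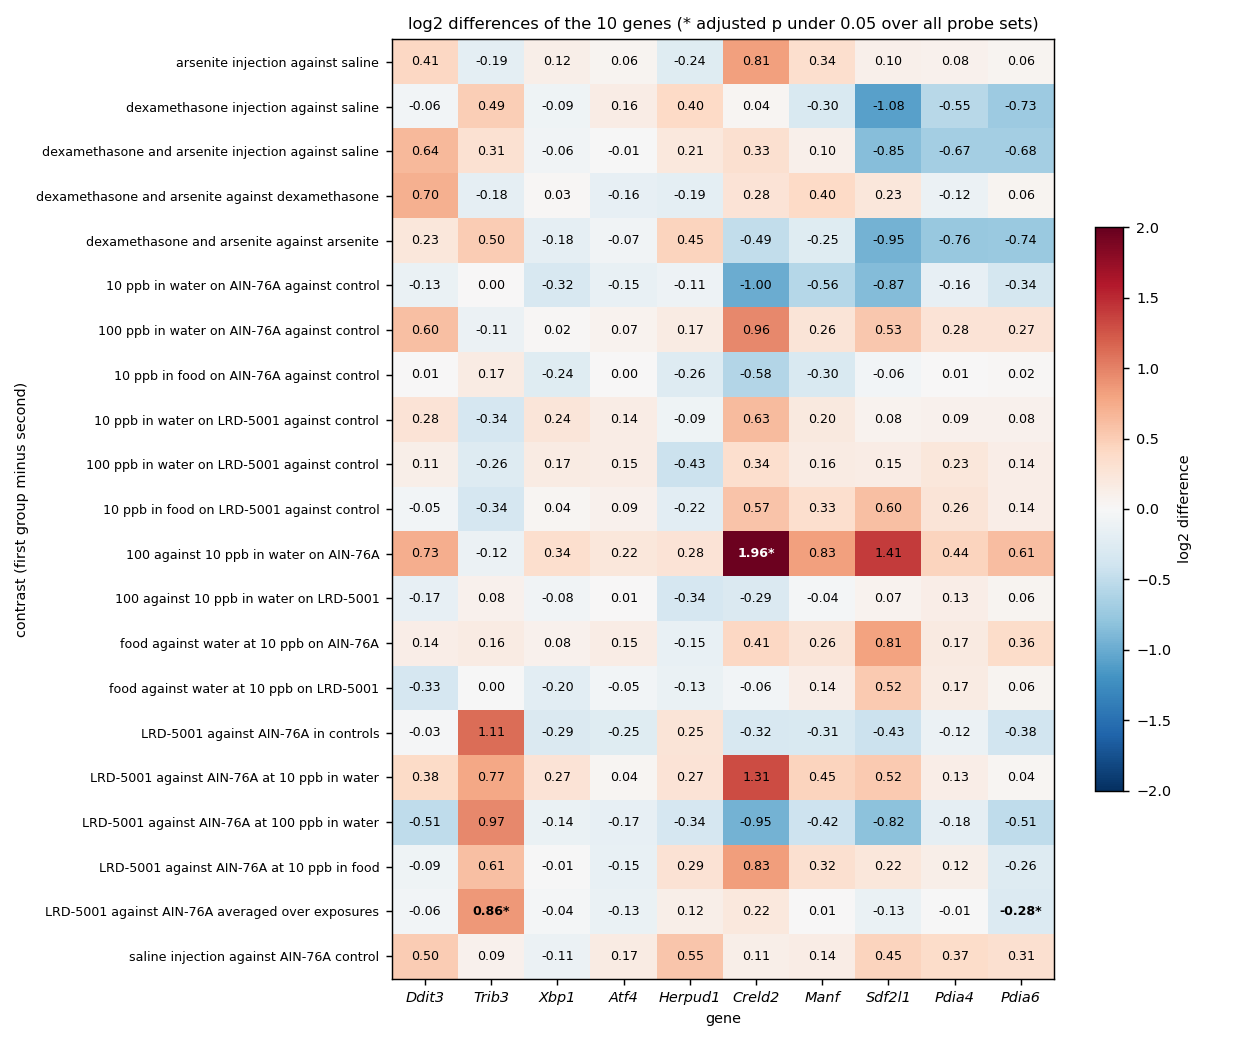
Log2 differences of the 10 genes (columns) in 21 contrasts (rows, the group named first minus the other), with colour from blue (lower) to red (higher) and an asterisk where limma's adjusted p over 45037 probe sets was under 0.05. Only Creld2 at 1.96 and, averaged over exposures, Trib3 at 0.86 and Pdia6 at -0.28 carry an asterisk.

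Between the 2 doses of arsenite in water on AIN-76A, Creld2 rose at the higher one. Creld2 encodes a protein of the ER that is induced by ER stress and can be secreted. At 100 ppb its 4 levels were 8.20, 9.94, 9.71 and 9.70, and at 10 ppb the 5 levels were 7.40, 6.68, 6.67, 7.12 and 9.25. Of the 100 ppb arrays 3 lie above all 10 ppb arrays, and the groups overlap because 1 of the 10 ppb arrays stood high at 9.25 and 1 of the 100 ppb arrays low at 8.20. The controls on the same diet were at 7.37, 8.73, 8.45, 8.97 and 8.59, with a mean of 8.42 between the 9.39 at 100 ppb and the 7.42 at 10 ppb.

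The Creld2 difference between 100 and 10 ppb was 1.96 (SE 0.48, 95% interval 0.99 to 2.93, a ratio of 3.89, limma adjusted p = 0.0397). In this contrast 0.713% of all probe sets were called, 0.302% higher at 100 ppb. The call was lost in 4 of 10 other settings and in 7 of the 9 fits that left out 1 array of the 2 groups, and the difference stayed between 1.77 and 2.42 in those 9. With a spread taken from the 2 groups alone limma's adjusted p was 0.67. Creld2 has 1 probe set, so the setting that averages all probe sets of a gene gave no check of it.

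The other genes of ER folding had differences of the same sign. Manf, which encodes a secreted ER stress-induced factor that binds BiP, had 9.99, 10.91, 11.15 and 10.63 at 100 ppb, and 10.01, 9.27, 9.60, 9.46 and 10.89 at 10 ppb. Its difference was 0.83 (95% interval 0.28 to 1.37, limma adjusted p = 0.169). Pdia6 had 10.07, 10.52, 10.97 and 9.96 at 100 ppb, and 9.83, 9.55, 9.79, 9.66 and 10.01 at 10 ppb, a difference of 0.61 (0.26 to 0.96, adjusted p = 0.0914). Both pairs of groups overlap. Sdf2l1, part of a complex that keeps ER proteins soluble, differed by 1.41 (0.32 to 2.49, adjusted p = 0.275) with a level of 7.63 in 1 of the 100 ppb arrays, and Pdia4, another disulfide isomerase, by 0.44. Pdia6 was called without the arrays that lay apart, at 0.70 (limma adjusted p = 0.0382).

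Among the regulators in this contrast, Ddit3 had 4.10, 4.08, 4.45 and 4.83 at 100 ppb, and 3.91, 2.60, 4.02, 4.07 and 3.56 at 10 ppb. CHOP, its product, is a transcription factor linked to cell death under lasting ER stress. The Ddit3 levels do not overlap between the doses, as was so for 1.88% of probe sets. They nearly touch, with the lowest at 100 ppb at 4.075 and the highest at 10 ppb at 4.072. The 10 ppb array at 2.60 was the one that lay apart in its group. The Ddit3 difference of 0.73 (95% interval 0.17 to 1.29) did not pass (limma adjusted p = 0.268). Xbp1 differed by 0.34, Herpud1, which serves ER-associated degradation, by 0.28, and Atf4 by 0.22. Trib3 was at -0.12 (95% interval -0.83 to 0.60), and its second probe set, which was dim, at -0.59 (SE 0.35, limma adjusted p = 0.587). In all, 9 of the 10 differences were positive, 5 had an unadjusted p under 0.05 (10.4% of all probe sets did), and the median was 0.53, beside 0.00155 over all genes.

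In the wider pathway, 1 gene was called in this contrast. Hspa5 averaged 11.61 ± 0.34 at 100 ppb (SD, n = 4) and 10.95 ± 0.44 at 10 ppb (SD, n = 5), a difference of 0.66 (limma adjusted p = 0.0873). Dnajb11, a co-chaperone of BiP, rose, with 8.65 ± 0.57 at 100 ppb and 7.54 ± 0.49 at 10 ppb, a difference of 1.11 (SE 0.25, limma adjusted p = 0.0303). Of 20 ER chaperone and folding genes, Dnajb11 was the only one called, and 18 differences were positive with a median of 0.43. Of 17 degradation and transport genes limma called 0, with 14 positive and a median of 0.28, and of 19 ATF4 and CHOP targets 0, with 15 positive and a median of 0.32. Over all genes, 50.3% of differences were positive. Derl2 (-0.33) and Bbc3 (-0.46), a cell death gene, were among the negative ones. The lists were chosen with earlier results known, and these counts describe them.

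Other genes differed strongly between these groups. At 100 ppb, the metal-binding Mt1 was higher by 4.91 and Mt2 by 5.52, the heme oxygenase Hmox1 by 1.58 and the glucocorticoid-responsive Fkbp5 by 2.35. The neutrophil genes S100a8 and S100a9 were higher by 2.66 and 2.75 and Ngp by 1.03, and Ighm was lower with -2.47. The clock genes Nfil3 and Cry2 differed by 1.55 (limma adjusted p = 0.00251) and -1.01 (limma adjusted p = 0.00772). Cela1, the only measured gene of the pancreas list that was not dim in these livers, differed by -0.92 (limma adjusted p = 0.047). The summed level of 7 neutrophil markers ran from 46.7 through 328 to 488 at 100 ppb, and from 38.1 through 47.6 to 65.9 at 10 ppb. Of these 7 markers, Mpo, Elane, Ngp, Camp and Csf3r were dim. The part of these genes and cells in the Creld2 difference was not tested.

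**Figure D3:**
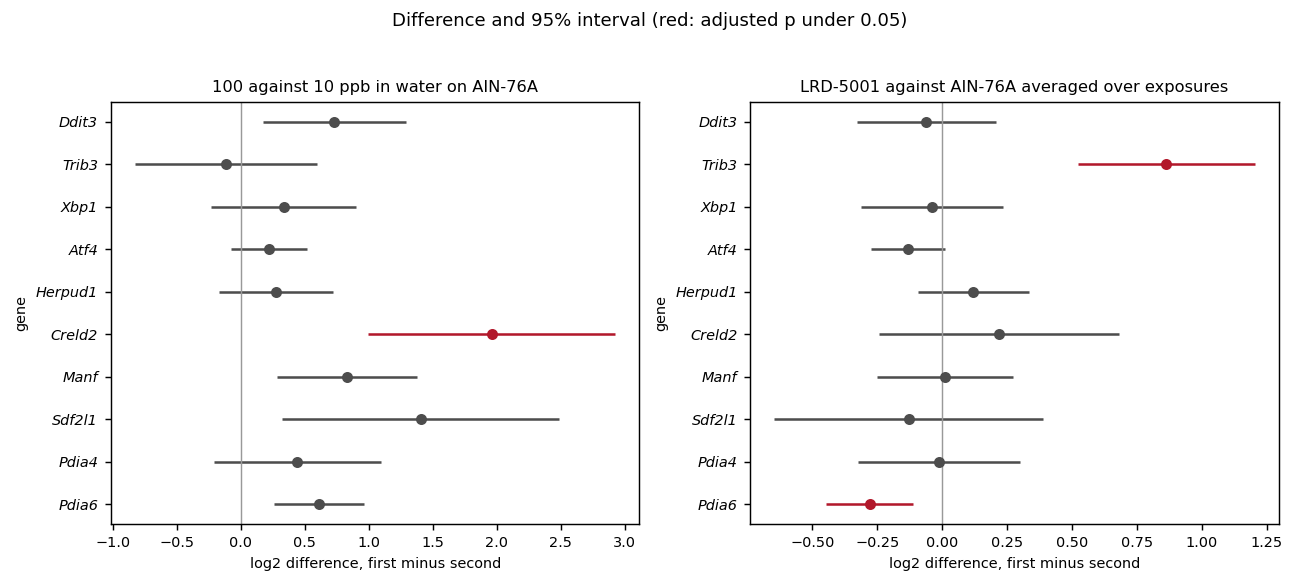
Differences of the 10 genes with their 95% intervals (log2, horizontal axes) for 100 against 10 ppb arsenite in water on AIN-76A (left) and for LRD-5001 against AIN-76A averaged over exposures (right), with red marking an adjusted p under 0.05. In the left panel 9 of 10 points are above 0 and Creld2 is at 1.96; in the right panel Trib3 is at 0.86 and Pdia6 at -0.28.

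On LRD-5001 the same doses gave other values. Creld2 averaged 8.44 ± 0.75 at 100 ppb and 8.73 ± 0.46 at 10 ppb (SD, n = 5 each), a difference of -0.29 (95% interval -1.21 to 0.62). limma called 0 of the 10 genes, and 0 had an unadjusted p under 0.05 (background 0% called, 1.84% unadjusted). The contrasts on the 2 diets use different mice, and the difference between them was not itself tested. The diet by exposure interactions, each taken against the controls of both diets, called 0 of the 10 genes and 0% of probe sets. At an unadjusted p under 0.05, limma gave 2 of the 10 genes for 10 ppb in water (4.14% of all probe sets), 0 for 100 ppb in water (6.12%) and 0 for 10 ppb in food (2.5%). Creld2 had the largest interaction at 10 ppb, 1.63 (95% interval 0.34 to 2.92, limma adjusted p = 0.999), and Manf had 0.76.

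Against the control of their diet, no exposed group had a called gene. limma called 0 of the 10 genes in each of the 6 contrasts, with a background of 0% in 5 of them and 0.00888% at 100 ppb on AIN-76A. At 10 ppb in water on AIN-76A, 9 differences were negative with a median of -0.24, and 3 had an unadjusted p under 0.05 (4.84% of all probe sets did). These were Creld2 (-0.997, 95% interval -1.91 to -0.08), Manf (-0.56) and Pdia6 (-0.34), with limma adjusted p of 0.993 or more. At 100 ppb on the same diet, 9 were positive with a median of 0.27, and 1 had an unadjusted p under 0.05 (8.87% of all probe sets did), Ddit3 with 0.60 (95% interval 0.04 to 1.16, limma adjusted p = 0.513). Both contrasts share the AIN-76A controls, and the contrast of 100 with 10 ppb shares each exposed group with them, so their values are not independent.

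On LRD-5001, 8 differences were positive at 10 ppb in water with a median of 0.12 and 0 with an unadjusted p under 0.05 (2.34% of all probe sets). At 100 ppb, 8 were positive with a median of 0.15, and Herpud1 alone had an unadjusted p under 0.05 (2.34% of all probe sets did), with -0.43 (95% interval -0.85 to -0.01). Herpud1 averaged 9.85 ± 0.22 at 100 ppb on LRD-5001 and 10.28 ± 0.12 in its controls (SD, n = 5 each). Arsenite in food gave 0 genes with an unadjusted p under 0.05 on LRD-5001 (2.29% of all probe sets) and on AIN-76A (3.63%). The unadjusted 95% intervals reach from 0.28 to 1.02 on either side of these differences in groups of 5. A call after adjustment over all probe sets needs a larger difference than that, so changes of this size could go uncalled here. Food against water at 10 ppb gave 0 calls on both diets, with a background of 0%. At an unadjusted p under 0.05, limma gave Pdia6 on AIN-76A with 0.36 (5.82% of all probe sets) and 0 genes on LRD-5001 (1.62%).

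After the arsenite injection, 8 of the 10 genes had a positive difference from saline, with a median of 0.09. limma called 0 of the 10 genes and 0% of all probe sets, and 0 of the 10 had an unadjusted p under 0.05 (3.14% of all probe sets did). Creld2 was 10.46, 9.08, 7.92, 10.19 and 9.09 after arsenite, and 8.34, 7.57, 9.34, 9.05 and 8.37 after saline. The 2 highest levels follow arsenite, yet the groups overlap. The difference was 0.81 (95% interval -0.29 to 1.91), between 0.54 and 1.17 when 1 array was left out, and those of Ddit3 and Manf were 0.41 and 0.34. Pdia6, with 0.06, and Sdf2l1, with 0.10, were closer to 0.

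Between dexamethasone and saline, limma called 1.74% of all probe sets and 0 of the 10 genes. Pdia6 alone had an unadjusted p under 0.05 (11.2% of all probe sets did), with 9.18, 10.05, 9.99, 9.54 and 9.70 after dexamethasone, and 10.31, 9.60, 10.65, 10.76 and 10.80 after saline. The groups overlap by 1 saline array at 9.60. The difference was -0.73 (95% interval -1.33 to -0.14, limma adjusted p = 0.286). Sdf2l1 had -1.08 (95% interval -2.28 to 0.12), with -0.69 without saline replicate F and -1.58 without saline replicate B. Pdia4 had -0.55, with -0.24 and -0.92 without the same arrays. Trib3 had 0.49, between 0.26 and 0.73 when 1 array was left out, and 0.92 without the arrays that lay apart. The second probe set of Trib3, which was dim, gave 0.85 (SE 0.31, limma adjusted p = 0.242). Herpud1 had 0.40, with 0.16 without dexamethasone replicate D and 0.51 without dexamethasone replicate A.

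Of the wider list of 20 ER chaperone and folding genes, 2 fell after dexamethasone. They were P4hb, a disulfide isomerase (-0.51, limma adjusted p = 0.0356), and Ppib, an ER prolyl isomerase (-0.71, limma adjusted p = 0.0369). Fkbp5, a textbook glucocorticoid target, rose by 2.98 (limma adjusted p = 0.00565). Cry1, a clock gene, rose by 1.30 beside it, and its part was not tested.

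With dexamethasone and arsenite together, Ddit3 averaged 4.91 ± 0.80, against 4.20 ± 0.62 after dexamethasone, 4.67 ± 0.59 after arsenite and 4.27 ± 0.44 after saline (SD, n = 5 each). The single levels were 4.02, 4.64, 5.53, 5.94 and 4.40 after both agents, and 4.34, 3.77, 4.91, 4.35 and 3.96 after saline, which overlap. The array at 5.94 was the array set apart in its group. The mean of the other 4 was 4.65, close to the 4.67 after arsenite, where all 5 arrays were kept. The array set apart in the arsenite group was its lowest, at 3.66. The difference was 0.64 from saline and 0.70 from dexamethasone (95% interval -0.06 to 1.47), and 0.38 and 0.44 without the array at 5.94. Without the arrays that lay apart in every group, these differences were 0.31 and 0.58. Both agents gave 0 called members against saline (background 0.926%), against arsenite (0.881%) and against dexamethasone (0%). At an unadjusted p under 0.05 limma gave 1 gene from saline (9.78% of all probe sets), 1 from arsenite (10.2%) and 0 from dexamethasone (3.87%). Both were Pdia6, with -0.68 (limma adjusted p = 0.414) from saline and -0.74 (limma adjusted p = 0.34) from arsenite. The interaction of the agents called 0 members and 0% of probe sets, and 0 members had an unadjusted p under 0.05 by limma (3.46% of all probe sets).

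Herpud1 and Atf4 were highest after dexamethasone. Herpud1 averaged 10.98 ± 0.56 there and 10.58 ± 0.47 after saline (SD, n = 5 each), with 1 dexamethasone array at 11.95. The saline group differed from the 5-week AIN-76A controls by 0.55 in Herpud1 (95% interval 0.06 to 1.05), the 1 gene of 10 with an unadjusted p under 0.05 (4.42% of all probe sets), and limma called 0 (background 0%). These groups come from separate experiments, and injection, age and experiment cannot be told apart.

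**Figure D4:**
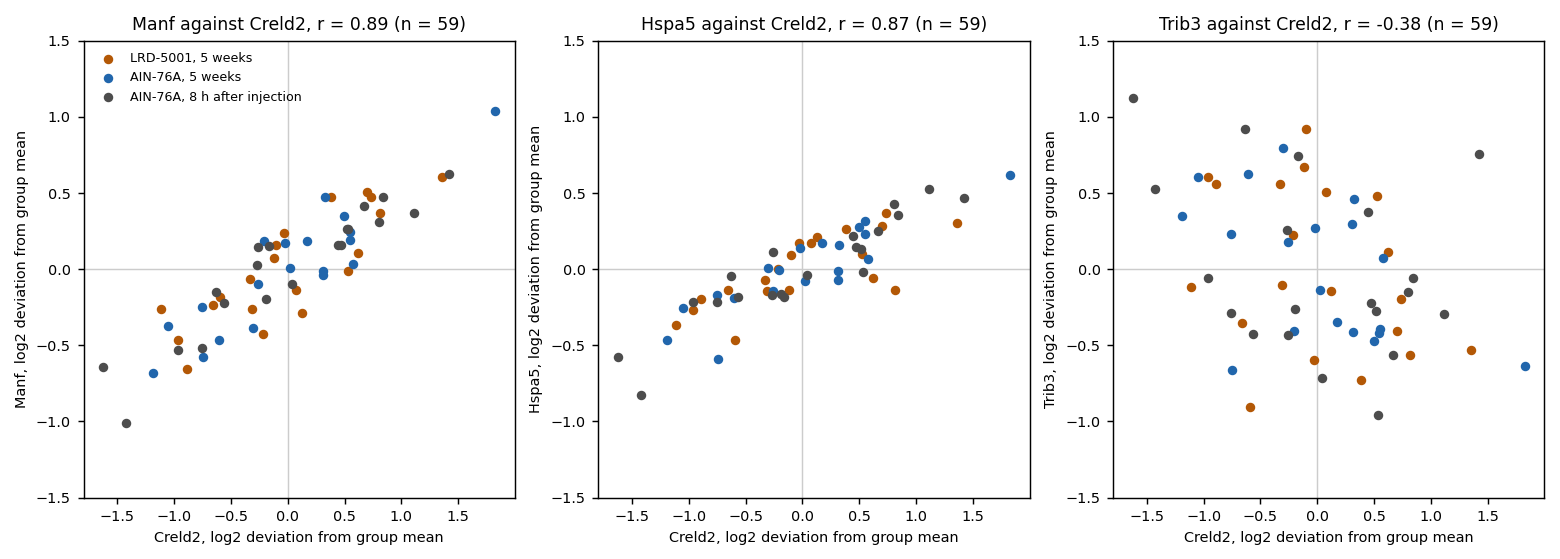
Deviation from the group mean (log2) of Manf, Hspa5 and Trib3 (vertical axes of the 3 panels) against that of Creld2 (horizontal axes), with 1 point for each of 59 arrays, coloured by experiment and diet. Manf (r = 0.89) and Hspa5 (r = 0.87) climb with Creld2, and Trib3 (r = -0.38) runs the other way with a wide scatter.

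Within groups, some pairs of the genes varied together from array to array. The deviations of each gene from its group mean were compared over 59 arrays, in 55 pairs with Hspa5 included, by a permutation test of 100000 resamples within groups, and 16 pairs passed after adjustment over the 55 (14 positive and 2 negative). Creld2 and Manf had Pearson r = 0.89 and Spearman rho = 0.88, with permutation p = 1e-05 for each, the smallest that these permutations can give (adjusted p = 5.5e-05). Leaving out the 2 arrays farthest in Creld2 gave 0.87, and leaving out the arrays that lay apart 0.89. Within the 5-week arrays it was 0.87 and within the injection arrays 0.94.

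Hspa5 went with both, with r = 0.87 and rho = 0.86 for Creld2 and r = 0.84 and rho = 0.83 for Manf. Creld2 with Pdia6 had r = 0.72 and rho = 0.75, Sdf2l1 with Pdia6 0.72 and 0.72, and Sdf2l1 with Pdia4 0.78 and 0.70, all at the smallest p the permutations can give. Among 5493 genes of mean level 5 or more, Manf had the highest correlation with Creld2, Hspa5 the next, Pdia6 was at rank 9 and Sdf2l1 at rank 27, and 0.2% of these genes had r over 0.7. Pairs share the array, so RNA quality and normalization of an array enter both genes. Over the 5 other members, Ddit3, Trib3, Xbp1, Herpud1 and Atf4, grouped here after the values were seen, r ran from -0.30 to 0.31 with all arrays and differed between the experiments. Ddit3 with Atf4 had -0.50 in the 5-week arrays and 0.61 in the injection arrays, Trib3 with Atf4 -0.60 and 0.16, and Ddit3 with Herpud1 0.57 and -0.09, in the same order. Herpud1 had r = 0.25 and rho = 0.08 with Creld2 (adjusted permutation p = 0.19 for r).

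Trib3 went the other way from Creld2 (r = -0.38, rho = -0.37) and Manf (r = -0.38, rho = -0.39), each with adjusted permutation p = 0.0342. Without the 2 farthest arrays these were -0.28 and -0.32, closer to 0. Levels, with differences between groups left in, were also compared with the mean of the 10 genes after each was scaled to the same spread. Of 5486 genes that are not members, the most alike were Dnajb11 (r = 0.906), Slc35b1 (0.837), Tmed3 (0.822), Dnajc3 (0.815) and Hspa5 (0.811) over 59 arrays.

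**Figure D5:**
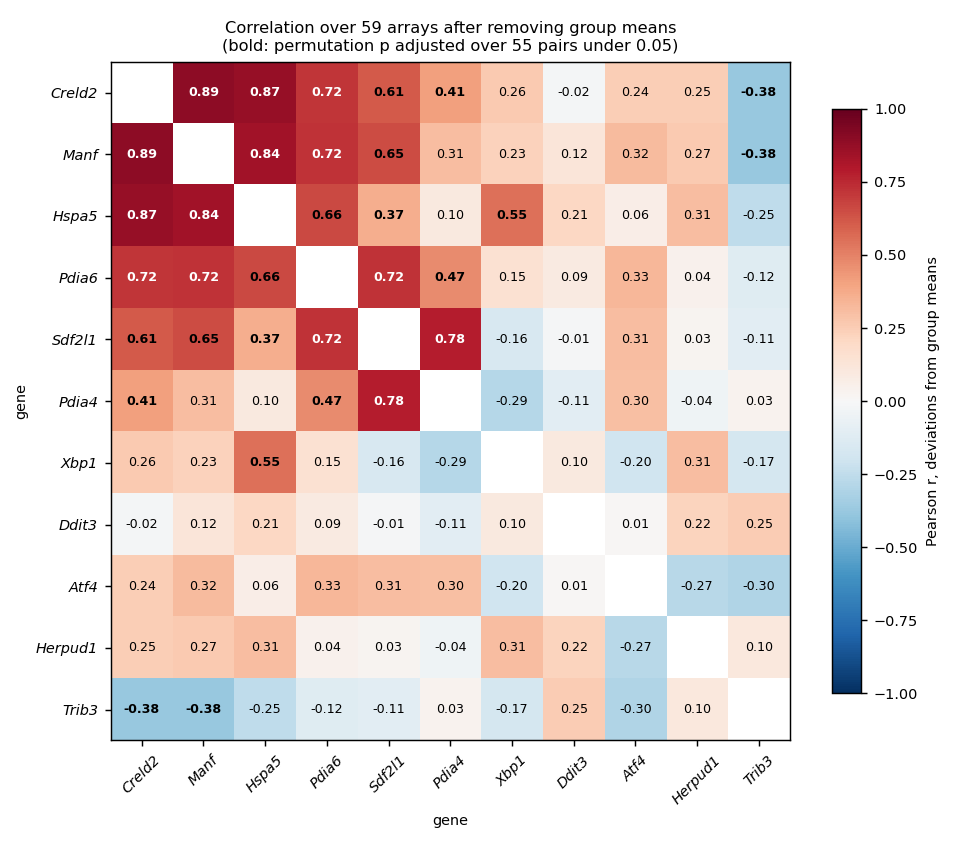
Pearson correlation of the deviations from group means over 59 arrays for each pair of the 10 genes and Hspa5, coloured from blue (negative) to red (positive). Creld2 with Manf is at 0.89, Creld2 with Hspa5 at 0.87 and Trib3 with Creld2 at -0.38.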

How the data were processed

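The authors deposited log2 expression values for each probe set. RMA made them, per the submitters' processing notes. The program and its settings were not given in the sources used here. RMA draws dim probe sets together, which can understate changes in dim genes. Of 45101 probe sets, 64 controls were left out. Symbols came from the platform annotation. limma 3.58.1 in R 4.3.3 fitted group means to the 39 arrays of the 5-week experiment and to the 20 injection arrays, and to all 59 for saline against AIN-76A controls. P-values were adjusted over 45037 probe sets by Benjamini-Hochberg, with a threshold of 0.05. Correlations used scipy 1.17.1. Precision is limited by the number of arrays. The fit was checked on simulated data. The named genes are the 10 members and Hspa5, with others from 13 lists holding 143 measured of 152 entries. Members and lists were chosen with earlier results of these data known. Array letters gave no sign of pairing samples between groups by the median r of array deviations. It was -0.004 over 267 same-letter pairs and -0.006 over pairs of other letters. Of the same-letter pairs, 80 had r over 0.1, a count not made for the others. Probe sets of 1 gene were not averaged, and levels were not compared between genes.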

Additional observations from a re-analysis of the deposited data

Results flagged for a closer look

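In 8 of the 120 sets of arrays (10 genes in 12 groups), 1 array lay far from the others of its group by Dixon's test, which chance gives in about 1 of 20. Creld2 was high at 9.25 in replicate F of 10 ppb in water on AIN-76A and low at 8.197 in replicate A of 100 ppb in water on AIN-76A, and both narrow the difference between these doses. Creld2 was low at 7.237 and Herpud1 low at 9.646 in replicate E of dexamethasone with arsenite. Herpud1 was high at 11.947 in replicate D of dexamethasone. Ddit3 was low at 3.658 in replicate D of arsenite injection, Xbp1 low at 9.451 in replicate C of dexamethasone, and Trib3 high at 4.148 in replicate F of saline. The 8 values come from 7 arrays, of which 4 lay apart in their group, the exceptions being the Creld2 arrays in water and the Herpud1 array after dexamethasone.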

How the results depend on the processing

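The 250 member results were refitted under alternatives, 5640 values in all. Some of these could not differ, as the fit of only the groups compared is the main fit for the average over exposures. Of the 5640 values, 5593 stayed on the same side of the threshold, 40 were no longer past it and 7 newly passed it. The sign changed in 357 values of 103 results, 0 of them called in either fit, with a reported size of at most 0.53. For 100 against 10 ppb in water on AIN-76A, 1 member was called, and 0 with all 59 arrays in 1 fit, with only the groups compared or with the replicate block, and between 0 and 3 when an array was left out. Creld2 there had limma's adjusted p of 0.0836 with all 59 arrays, 0.0642 with the block and 0.0776 without the arrays that lay apart. Leaving out replicate A of 100 ppb gave 2.36 (limma adjusted p = 0.00405), with Pdia6 and Manf called too, and leaving out replicate F of 10 ppb gave 2.42 (limma adjusted p = 0.00855), with Manf called too. Its call was lost without 10 ppb replicates A, C, D or E and without 100 ppb replicates B, C or D, with limma's adjusted p of 0.0697 to 0.215. For LRD-5001 against AIN-76A averaged over exposures, 2 members were called, and 1 (Trib3) with all 59 arrays, with the mean of all probe sets or with the replicate block, and between 1 and 2 when an array was left out. At 100 ppb in water, the diets gave 0 calls, 1 (Pdia6) without the arrays that lay apart, and between 0 and 1 when an array was left out. The cause was not tested. The replicate block used the array letters, whose meaning is not stated and which gave no sign of pairing samples by the median r. Counts over all probe sets moved more, from 321 to between 0 and 1109 for the doses on AIN-76A, with 10 to 1278 when an array was left out. Second probe sets of Ddit3, Pdia4 and Pdia6 were dim (means 2.26, 2.25 and 2.59) and give no check of these genes. That of Trib3 was dim too (mean 3.52) and gives a limited check.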
